A study of Mus musculus with 9 samples.

Results

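The genes described here build, protect and cut the cohesin ring that holds chromosomes together in oocytes. The list has 10 members, chosen by gene symbol: the cohesin subunits Rec8, Smc1b, Smc3 and Stag3, the shugoshins Sgo1 and Sgo2a, the securin gene Pttg1, the separase gene Espl1, the cohesin loader Nipbl and the release factor Wapl. Of these, 9 were matched among the 30153 genes of the count tables, and all 9 had enough reads to be tested. Rec8, the meiotic kleisin subunit that separase cuts, was not analysed here.

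Cohesin is a ring of 2 SMC proteins closed by a kleisin and bound by a STAG subunit. Meiotic cells replace several mitotic subunits with meiotic versions, and in mammalian oocytes the cohesin that holds sister chromatids is loaded before birth and must last until ovulation. Shugoshins recruit a phosphatase that shields cohesin at centromeres during the first division. Separase, held inactive by securin until the anaphase-promoting complex destroys it, then opens the ring. An egg arrested in metaphase II therefore still carries centromeric cohesin and stored mRNA for the proteins of the second division, and makes almost no new RNA.

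RNA-seq was performed on pooled mouse metaphase II (MII) oocytes from females aged 4 weeks, on a mixed genetic background, whose genotype was Sycp3CreERT2/+; Rosa26nT-nG/+ in every group. Sycp3CreERT2 places an inducible Cre recombinase under the control of Sycp3, a gene of the meiotic chromosome axis, and nT-nG is a reporter that switches from nuclear tdTomato to nuclear GFP once Cre has acted. Ovulation was induced with 5 IU PMSG and, 48 h later, 5 IU hCG, and eggs were taken 13 h after hCG, treated with hyaluronidase to remove the cumulus and hand-sorted for their fluorescence. The 3 groups, of 3 libraries each, were GFP High (15 to 16 oocytes per pool), GFP Low (49 to 57) and RFP (87 to 100), so the groups differ in pool size as well as in reporter colour, and these cannot be told apart. No group lacked the Cre allele or the reporter. The time of inducer treatment is not used here, and nothing states that libraries of a group came from separate animals, so p-values measure the spread between these pools, which may be partly technical.

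Libraries held 19381677 to 27746256 counts. The reporters followed the labels: the counts of eGFP were 869 to 1081 for GFP High, 282 to 662 for GFP Low and 0 to 16 for RFP, and tdTomato had 0 to 2, 16 to 35 and 46 to 94. All 12 oocyte markers reached 1 CPM (counts scaled to a common library total) in every library, with a summed 6797 to 7493 CPM for GFP High, 6271 to 6450 for GFP Low and 6353 to 6646 for RFP. The 14 cumulus and granulosa markers summed to 8.95 to 57.9 CPM for GFP High, 13.4 to 54.1 for GFP Low and 16.7 to 74.6 for RFP, and 1 to 11 of the 14 were at 0 counts in a library. Cyp19a1, the aromatase gene, was at 6.87 to 18.2 CPM in all 9. The 6 matched markers of other ovarian and blood cells summed to 39.1 to 58.6, 37.8 to 43.7 and 37.9 to 46.2 CPM, of which the endothelial gene Pecam1 alone made up 37.2 to 58.1 CPM. The mean CPM of the other 5 (Ptprc, Col1a1, Col1a2, Acta2 and Cyp17a1) was 0.374 or lower. Mki67 and Top2a, proliferation genes that oocytes also use, summed to 521 to 641, 637 to 714 and 651 to 727 CPM. Less of a transcript per oocyte and fewer oocytes contributing it cannot be told apart in pools.

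The 3′ ends of the members are shown because libraries were made from poly-A RNA, so each value counts transcripts whose tail was long enough to be captured. A stored oocyte mRNA can keep a short tail until the cytoplasmic polyadenylation element, a U-rich motif, recruits the machinery that lengthens it. In the sequences, read 5′ to 3′ on the transcript strand of GENCODE M21 transcripts (build GRCm38), capitals mark the polyadenylation signal (AATAAA or ATTAAA, searched in the last 40 bases) or, where named, the cytoplasmic polyadenylation element (TTTTAT or TTTTAAT, searched in the last 100 bases, transcript strand only). Shown are the shugoshins, securin and separase.
Sgo2a, cytoplasmic polyadenylation element: acttatgtatcaTTTTATcattaattctct
Sgo2a, polyadenylation signal: tctttatttattttttaaatacaaATTAAA
Sgo1, polyadenylation signal: tctgtggttgtataatatgatataAATAAA
Pttg1, polyadenylation signal: tagtttctgtatgtatgttgtattAATAAA
Espl1, polyadenylation signal: aaatattttctttaatgtgaccttAATAAA
The Sgo2a element began 63 bases before the transcript's end. Of the 9 members, Sgo2a alone held one. The annotated 3′ UTR of Pttg1 has 55 bases, and the other 8 have at least 100, so the shares are given over those 8: 1 held the element (12.5%), against 18.4% of 17067 protein-coding genes with a 3′ UTR of at least 100 bases, and 6 held a polyadenylation signal (75.0%), against 74.9%. Pttg1 also held a polyadenylation signal. Smc1b and Smc3 had neither of the letter strings in the last 40 bases, and Sgo2a alone carried the ATTAAA form among the 7. These matches describe letters in annotated ends, which need not be the ends used in oocytes.

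Every analysed member was expressed, over a 101-fold range of mean level. Levels were compared between genes as the authors' FPKM and are given as the mean ± SD over the 9 libraries. FPKM divides by the deposited gene length, which for all 9 members was the joint length of all annotated exons. This can exceed the length of a single transcript, so orders, shares and ratios between genes depend on that choice. Smc3, the SMC subunit common to mitotic and meiotic rings, stood highest at 125.2 ± 9.63 FPKM, at percentile 98.3 of the 18483 protein-coding genes with FPKM above 0. Wapl, which opens the ring without cutting it, was at 64.3 ± 5.59 FPKM, and Pttg1, the securin, at 62.6 ± 10.5. Nipbl, which loads cohesin onto DNA, followed at 36.0 ± 3.65 FPKM. Below it lay the meiotic SMC subunit Smc1b at 17.4 ± 1.21, Sgo1 at 14.9 ± 1.38 and Espl1, the protease itself, at 13.3 ± 0.954 FPKM. Sgo2a, the shugoshin that protects cohesin in oocyte meiosis, was at 5.91 ± 0.922 FPKM. Stag3, the meiotic STAG subunit, was last at 1.24 ± 0.380 FPKM, at percentile 54.0.

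Most steps of this order were larger than the spread between libraries. The ranges over 9 libraries overlapped for 3 neighbouring pairs, Wapl with Pttg1, Smc1b with Sgo1 and Sgo1 with Espl1. Within libraries, Smc1b stood above Sgo1 in all 9. Wapl and Pttg1 changed places between libraries, as did Sgo1 and Espl1, so these neighbours cannot be ranked. The other neighbours did not overlap: the lowest Smc3 value (110.8 FPKM) lay above the highest of Wapl (72.4), and the lowest Sgo2a value (4.24) lay above the highest of Stag3 (2.02). The order of the means held exactly in 3 of the 9 libraries.

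**Figure D1:**
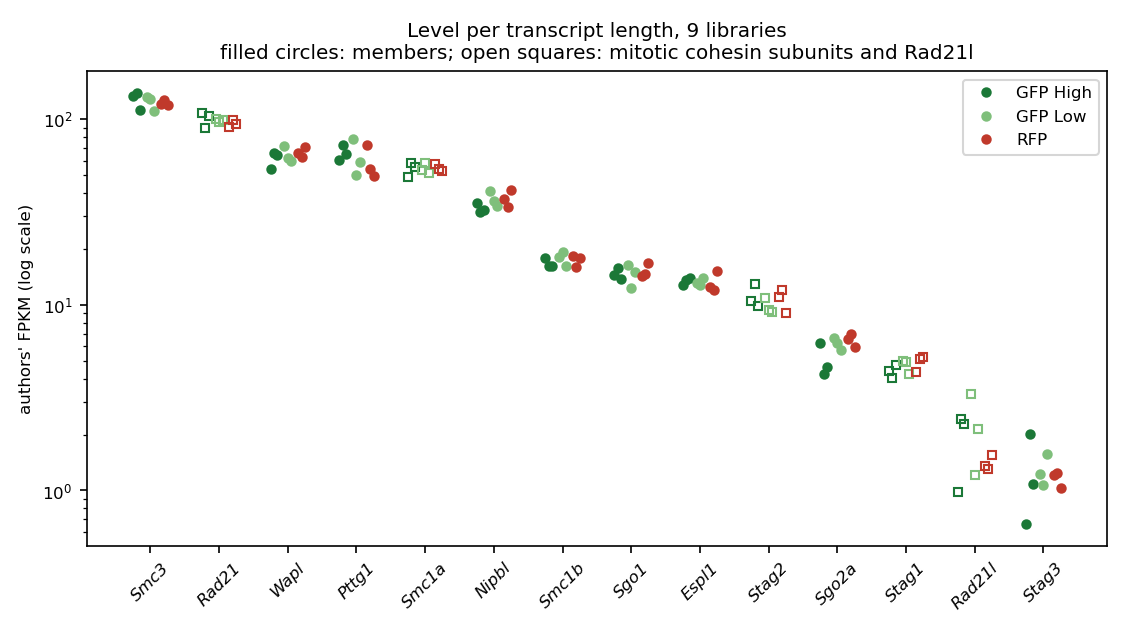
FPKM (log scale) of the 9 members (filled circles) and of the mitotic subunits and Rad21l (open squares) in each of the 9 libraries, ordered by mean and coloured by group. Smc3 lies near 125.2 FPKM and Stag3 near 1.24, and the 3 groups overlap for every gene drawn.

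For the SMC1 and STAG genes, transcripts of the mitotic subunits were more abundant than those of the meiotic ones. Smc1a, the mitotic partner of Smc3, was at 54.4 ± 3.33 FPKM, against 17.4 ± 1.21 for Smc1b, and their ranges over the 9 libraries (48.8 to 58.5 and 16.1 to 19.3) did not overlap. Smc1b made up 24.2 ± 1.64% of the summed FPKM of Smc1a and Smc1b. GFP High gave a share of 23.7 ± 2.76%, GFP Low one of 24.9 ± 0.758% and RFP one of 24.2 ± 1.24% (SD, n = 3 each), which differ by less than the spread between libraries. Of the mitotic STAG genes, Stag2 was at 10.5 ± 1.34 and Stag1 at 4.67 ± 0.424 FPKM, both above every Stag3 value. Stag3 gave 7.47 ± 1.98% of the summed FPKM of Stag1, Stag2 and Stag3, with group means of 7.26 ± 3.22% for GFP High, 8.21 ± 1.97% for GFP Low and 6.93 ± 0.332% for RFP. The mitotic kleisin Rad21 was at 98.2 ± 5.83 FPKM, second to Smc3 among the genes drawn, and Rad21l, a kleisin of early meiosis, was at 1.84 ± 0.756 FPKM with 45 to 108 counts per library.

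Levels of genes whose products work together or against each other were also compared within each library. Smc3 stood at 1.75 ± 0.147 times the summed FPKM of its partners Smc1a and Smc1b, with a range of 1.57 to 2.01. Securin transcripts exceeded separase transcripts in all 9 libraries, with a Pttg1 to Espl1 ratio of 4.72 ± 0.886 (3.28 to 6.002). Wapl exceeded its functional opposite Nipbl in all 9, by a ratio of 1.79 ± 0.170 (1.51 to 2.10). These are ratios of captured mRNA, not of protein.

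For comparisons between groups, levels of 1 gene are given as the same TMM-scaled CPM. Differences are log2 fold changes from edgeR's quasi-likelihood test with Benjamini-Hochberg adjustment over all genes tested. No member passed an adjusted p of 0.05 in any of the 3 comparisons, GFP High minus RFP (High–RFP), GFP Low minus RFP (Low–RFP) and GFP High minus GFP Low (High–Low). In High–RFP, 0 of 9 members were called, against 0.0135% of 14829 genes. At an unadjusted p below 0.05 the members again gave 0, against 4.09% of genes. No member had groups whose CPM ranges did not overlap, against 11.9% of genes. In Low–RFP, the members gave 0 at the adjusted threshold, against 0.0197% of 15199 genes, 0 unadjusted, against 2.62%, and 0 non-overlapping, against 7.68%. In High–Low, no gene of 14785 was called (0%), and the members gave 0 unadjusted, against 3.77%, and 0 non-overlapping, against 11.5%. DESeq2 and limma-voom also gave 0 members at both the adjusted and the unadjusted threshold in all 3 comparisons. In High–RFP, edgeR on all 9 libraries and edgeR without a filter on low counts each gave 1 member unadjusted and 0 adjusted. The unadjusted share over all genes was not counted in those fits. The comparisons share groups pairwise and are not independent of each other.

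The median log2 fold change of the 9 members was -0.06 in High–RFP, 0.01 in Low–RFP and -0.05 in High–Low, beside -0.01, 0 and 0 over all genes tested. The members above 0 numbered 4, 5 and 4 of 9. Outside Stag3, the 95% intervals of all members in all 3 comparisons lay between a fold of 0.582 and a fold of 1.41, so a 2-fold difference lay outside them. Stag3 was the exception, with an interval of 0.554- to 2.07-fold in High–RFP and of 0.496- to 1.88-fold in High–Low.

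**Figure D2:**
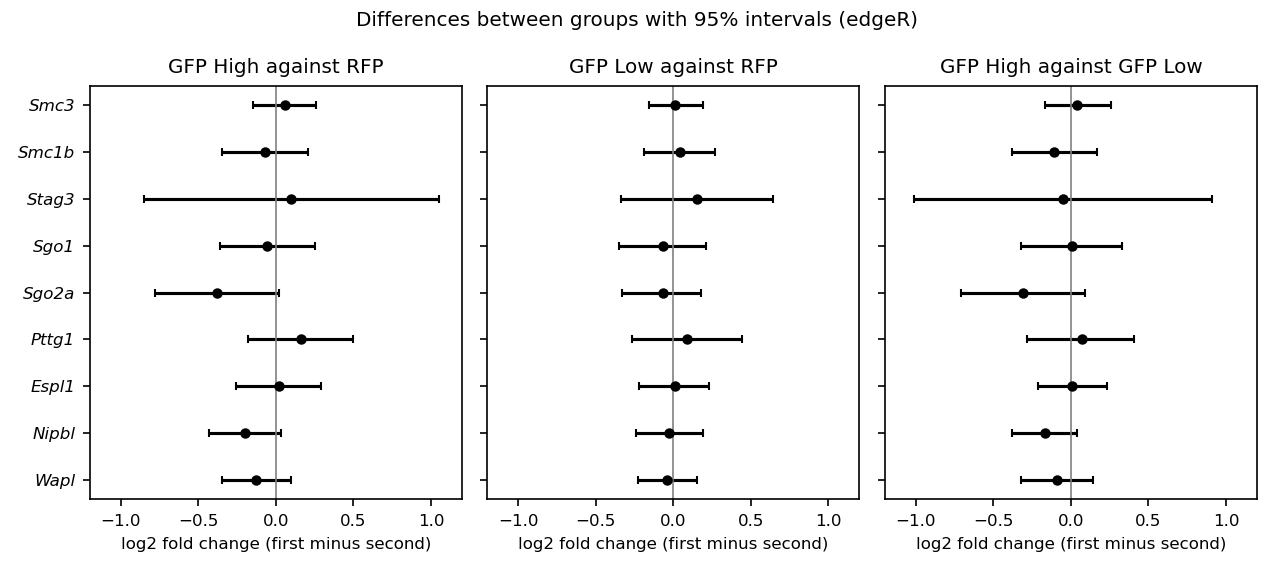
Log2 fold change (first group minus second) of each member in the 3 comparisons, from edgeR. Points are estimates and bars are 95% intervals, all of which include 0. The Stag3 bars are the widest, and the Sgo2a bar in High–RFP runs from -0.78 to 0.02.

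Among the cohesin subunits, Smc3 (ENSMUSG00000024974; chromosome 19, 53600398 to 53645833, plus strand, on GRCm38 as all positions here) varied little. The GFP High libraries had 747.3, 770.1 and 630.7 CPM, the GFP Low libraries 740.5, 724.7 and 621.9, and the RFP libraries 678.5, 711.5 and 681.6. The third library was the lowest of both GFP groups, and all 3 groups overlapped. The log2 fold change was 0.06 (SE 0.09) in High–RFP, 0.01 (SE 0.08) in Low–RFP and 0.04 (SE 0.10) in High–Low. Stretches of 144 to 147 bases of Smc3 are over 95% identical to the annotated transcripts Gm11204 and AC154766.2, so a small part of its reads may not be unique.

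Smc1b (ENSMUSG00000022432; chromosome 15, 85064689 to 85131964, minus strand), the SMC subunit found in meiotic cells, was as even as Smc3. Libraries of GFP High had 72.7, 65.2 and 66.4 CPM, the GFP Low libraries 74.5, 79.2 and 66.6, and the RFP libraries 75.1, 65.8 and 74.0. The group means of 68.1 ± 4.01, 73.5 ± 6.39 and 71.6 ± 5.07 CPM (SD, n = 3 each) lay closer together than the libraries of a group. The log2 fold changes were -0.07 (SE 0.12), 0.04 (SE 0.11) and -0.11 (SE 0.12) in the same order of comparisons. Its coefficient of variation (CV, the SD over the mean) over the 9 libraries was 7.21%, close to the 7.35% of Smc3, although Smc3 has about 10 times the CPM.

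Stag3 (ENSMUSG00000036928; chromosome 5, 138280240 to 138312393, plus strand) was the most variable member. The GFP High libraries had 3.797, 11.6 and 6.25 CPM, the GFP Low libraries 7.11, 6.22 and 9.08, and the RFP libraries 7.02, 7.20 and 6.05. The lowest and the highest of the 9 values were both GFP High libraries, replicates 1 and 2, with 104 and 285 counts. The CV was 30.3% over 9 libraries, with a counting error of 7.51% at its mean count, the most of any member on both, and within GFP High it was 55.3%, within GFP Low 19.6% and within RFP 9.16%. Pool size ran in the opposite order, from 15 to 16 oocytes in GFP High to 87 to 100 in RFP, and its part in the spread was not tested. Smc3, Sgo2a and Wapl also had their largest CV in GFP High. Smc1b, Sgo1, Pttg1 and Nipbl had their smallest there, with Pttg1 at 8.85%, against 23.1% in GFP Low and 20.6% in RFP. Espl1 had its largest in RFP, at 13.6%. The log2 fold change was 0.10 (SE 0.43) in High–RFP, 0.15 (SE 0.23) in Low–RFP and -0.05 (SE 0.43) in High–Low. Leaving out GFP High replicate 2 gave -0.43 and -0.58 in the comparisons with RFP and GFP Low, and leaving out replicate 1 gave 0.40 and 0.25, so its direction rested on single libraries. The cumulus and granulosa sum was 57.9 CPM in GFP High replicate 1, which had the least Stag3 of its group, and 8.95 in replicate 2, which had the most. The RFP library with the highest sum, replicate 2 at 74.6 CPM, had the most Stag3 of its group (7.20 CPM). The GFP Low library with the highest sum, replicate 1 at 54.1 CPM, had the middle value (7.11 CPM). The part of these sums in the Stag3 values was not tested.

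Stag3 was also the member used to look for genes with a similar profile, since its SD of log2 CPM (0.434) was the largest. Among 9242 genes with a mean of at least 5 CPM, the highest Pearson correlations with Stag3 over the 9 libraries were those of Bnip3, a mitochondrial mitophagy receptor (r = 0.975, Spearman's rho 1.00, mean 25.9 CPM), Ceacam2, a cell adhesion gene (r = 0.970, rho 0.933, 11.8 CPM), and Gm47561, a lincRNA (r = 0.953, rho 0.983, 7.91 CPM). These are the top of a search over all those genes in 9 libraries and share those libraries with Stag3, so they are a description with no test.

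**Figure D3:**
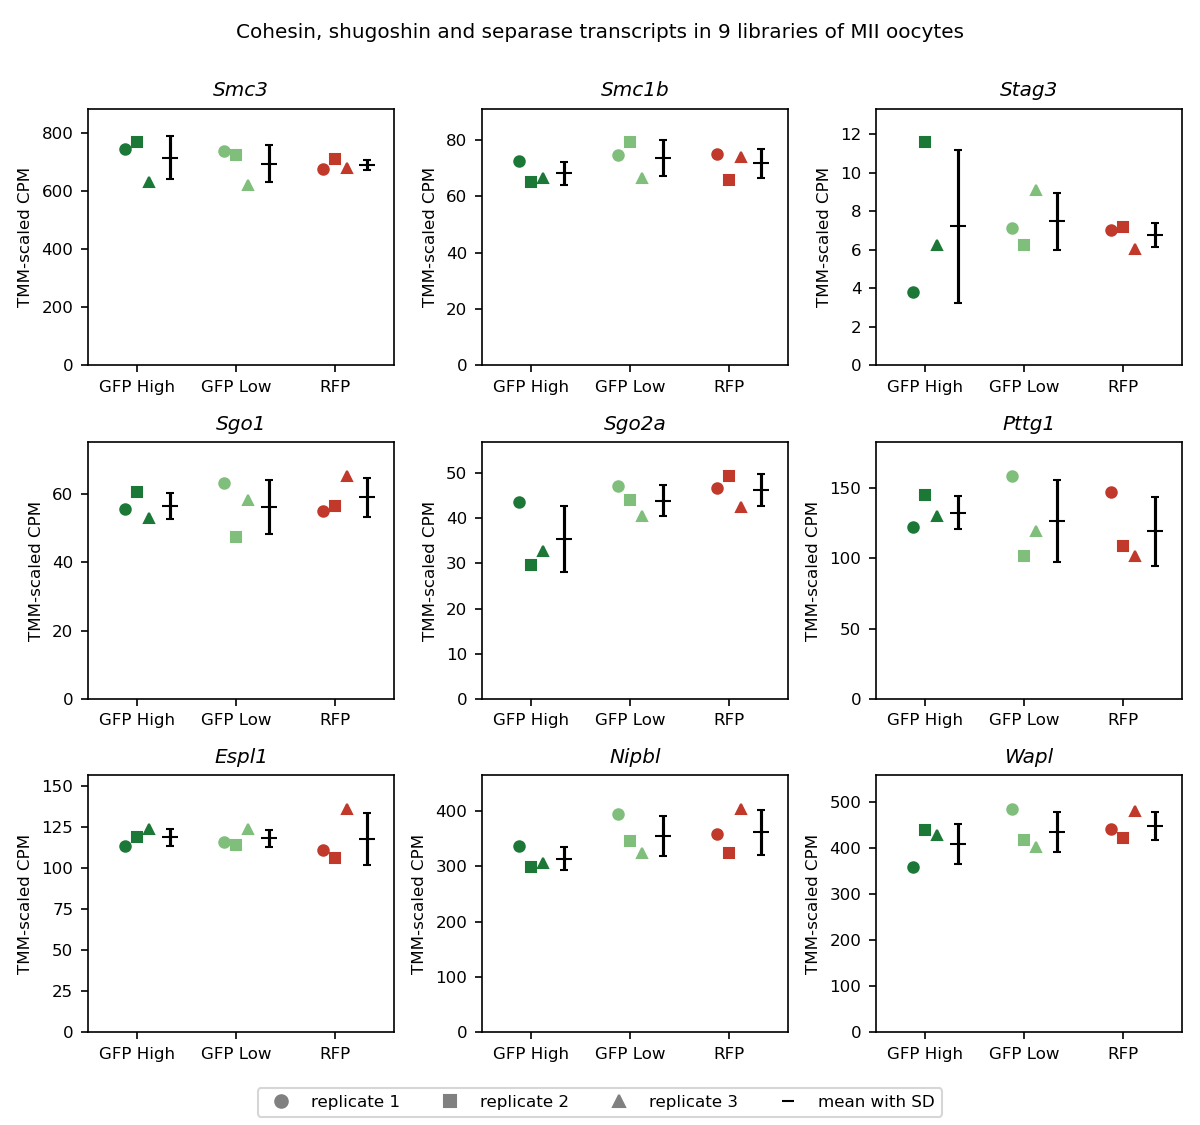
TMM-scaled CPM of the 9 members in the 9 libraries of GFP High, GFP Low and RFP, on axes that start at 0. Symbols give the replicate number, and the bar beside each group is the mean with SD (n = 3). The groups overlap in every panel, Stag3 spreads from 3.797 to 11.6 CPM within GFP High, and 2 of the 3 GFP High libraries are the lowest of the 9 for Sgo2a.

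Of the shugoshins, Sgo1 (ENSMUSG00000023940; chromosome 17, 53674786 to 53689333, minus strand), known for guarding mitotic centromeres, was measured in GFP High libraries at 55.8, 60.6 and 53.0 CPM, in GFP Low libraries at 63.2, 47.5 and 58.1, and in RFP libraries at 55.2, 56.4 and 65.4. The lowest and the next-to-highest of these values were both GFP Low libraries, and the groups overlapped. The log2 fold changes were -0.06 (SE 0.14), -0.07 (SE 0.13) and 0.01 (SE 0.15) in High–RFP, Low–RFP and High–Low.

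Sgo2a (ENSMUSG00000026039; chromosome 1, 57995971 to 58025899, plus strand) had the smallest p of the members in High–RFP. Libraries of GFP High had 43.7, 29.7 and 32.7 CPM, the GFP Low libraries 47.2, 44.1 and 40.4, and the RFP libraries 46.8, 49.5 and 42.4. GFP High replicates 2 and 3 were below all 6 other-group libraries, while GFP High replicate 1 lay inside both other groups. In High–RFP the log2 fold change was -0.38 (SE 0.18, 95% interval -0.78 to 0.02), with an edgeR p of 0.0599 and an adjusted p of 0.997. In High–Low it was -0.31 (SE 0.18, interval -0.71 to 0.09), with an edgeR p of 0.115 and an adjusted p of 0.998. Low–RFP gave -0.07 (SE 0.12, interval -0.33 to 0.18). Leaving out each library in turn kept the first value between -0.57, without GFP High replicate 1, and -0.27, without GFP High replicate 2, and no such fit called it. The lowest adjusted p of any member under any alternative fit was 0.464, that of Sgo2a in High–RFP. In each group the library with the highest cumulus and granulosa sum also had the most Sgo2a: GFP High replicate 1 (a sum of 57.9 CPM with 43.7 CPM of Sgo2a), GFP Low replicate 1 (54.1 with 47.2) and RFP replicate 2 (74.6 with 49.5). The sums of the other libraries were 8.95 and 12.5 CPM for GFP High, 13.4 and 27.9 for GFP Low, and 29.0 and 16.7 for RFP, and their part in the Sgo2a values was not tested.

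The Sgo2a counts carry a further limit, since its exons overlap those of Kctd18, a gene of the potassium channel tetramerisation domain family on the opposite strand, by 2455 bases. Whether reads were counted by strand is not given in the sources used here, and without strand the reads of this overlap cannot be told apart. The GFP High libraries had 11.7, 16.3 and 16.0 CPM of Kctd18, the GFP Low libraries 12.2, 11.8 and 8.62, and the RFP libraries 11.6, 11.5 and 9.98. The libraries with the least Sgo2a, GFP High replicates 2 and 3, had the most Kctd18. The Kctd18 log2 fold change was 0.42 (SE 0.25, interval -0.14 to 0.98) in High–RFP, with an edgeR adjusted p of 0.997 although the CPM ranges did not overlap, -0.02 (SE 0.19) in Low–RFP and 0.44 (SE 0.27) in High–Low. Kctd18 is not a member and was named after its values were seen.

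**Figure D4:**
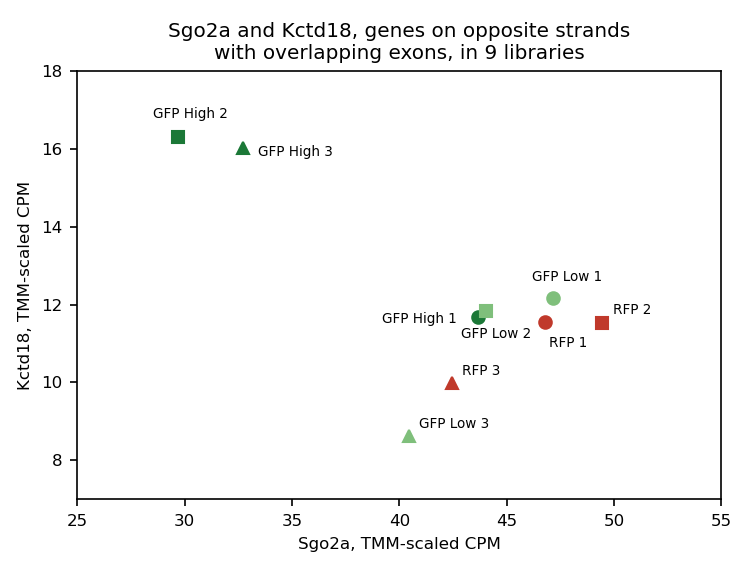
TMM-scaled CPM of Sgo2a (x axis, from 25) and Kctd18 (y axis, from 7), one point per library, coloured by group and shaped by replicate. GFP High replicates 2 and 3 sit apart at 29.7 and 32.7 CPM of Sgo2a with 16.3 and 16.0 CPM of Kctd18, and GFP High replicate 1 lies among the GFP Low and RFP libraries.

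Sgo2a supplied 28.4 ± 3.95% of the summed FPKM of Sgo1 and Sgo2a over the 9 libraries. This sum leaves out Sgo2b, a paralog of Sgo2a outside the members, at 5.40 ± 0.85 FPKM. The overlap with Kctd18 limits the share as it does the Sgo2a counts. The share was 29.9, 21.1 and 25.1% for the GFP High libraries, 28.9, 33.5 and 27.4% for GFP Low libraries, and 31.5, 32.3 and 26.1% for RFP libraries. GFP High averaged 25.4 ± 4.41%, GFP Low 29.95 ± 3.17% and RFP 29.97 ± 3.40% (SD, n = 3 each), and the groups overlapped.

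Pttg1 (ENSMUSG00000020415; chromosome 11, 43420250 to 43426251, minus strand) encodes securin, the inhibitor that keeps separase off until anaphase. Libraries of GFP High had 122.1, 145.3 and 130.6 CPM, the GFP Low libraries 159.1, 101.8 and 119.7, and the RFP libraries 147.5, 108.9 and 101.8. Its CV over the 9 libraries was 16.5%, the next after Stag3 among the members, and the GFP Low libraries covered its highest value. The log2 fold changes were 0.16 (SE 0.15), 0.09 (SE 0.16) and 0.07 (SE 0.16) in High–RFP, Low–RFP and High–Low.

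Espl1 (ENSMUSG00000058290; chromosome 15, 102296266 to 102324357, plus strand) encodes separase. The GFP High libraries had 113.2, 118.9 and 123.4 CPM, the GFP Low libraries 116.0, 114.1 and 123.6, and the RFP libraries 110.8, 106.0 and 135.8. The group means of 118.5 ± 5.11, 117.9 ± 5.03 and 117.5 ± 16.0 CPM (SD, n = 3 each) were the closest of any member relative to their level. The log2 fold changes were 0.02 (SE 0.12), 0.01 (SE 0.10) and 0.01 (SE 0.10), and the 95% interval in High–RFP ran from -0.26 to 0.29.

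Nipbl (ENSMUSG00000022141; chromosome 15, 8290617 to 8444463, minus strand), the loader, was measured in GFP High libraries at 336.7, 297.7 and 306.4 CPM, in GFP Low libraries at 393.7, 345.1 and 324.1, and in RFP libraries at 357.2, 323.1 and 403.2. The lowest pair of its 9 values were GFP High libraries, and GFP High replicate 1 lay inside both other groups. The log2 fold change was -0.20 (SE 0.10, interval -0.43 to 0.03; edgeR p 0.0838, adjusted p 0.997) in High–RFP, -0.03 (SE 0.10) in Low–RFP and -0.17 (SE 0.09; edgeR p 0.0956, adjusted p 0.998) in High–Low. After Sgo2a, these were the smallest p-values of the members in High–RFP, and the smallest of any member in High–Low.

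Wapl (ENSMUSG00000041408; chromosome 14, 34673928 to 34747983, plus strand), the release factor, was measured in GFP High libraries at 358.3, 438.8 and 427.7 CPM, in GFP Low libraries at 484.3, 416.7 and 401.8, and in RFP libraries at 441.3, 421.3 and 480.3. GFP High replicate 1 was the lowest of the 9, and the groups overlapped. The log2 fold changes were -0.13 (SE 0.10), -0.04 (SE 0.09) and -0.09 (SE 0.10) in High–RFP, Low–RFP and High–Low.

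The genes around these members gave no adjusted call either: in 5 wider lists, edgeR called 0 genes in each of the 3 comparisons. Over all genes tested, the calls were 0.0135% in High–RFP, 0.0197% in Low–RFP and 0% in High–Low, so these counts are near the share over all genes. The mitotic subunits and Rad21l, 5 genes, all were tested, and their median log2 fold change was 0.04 in High–RFP, -0.01 in Low–RFP and -0.01 in High–Low. Rad21l was the least certain of them, at 0.42 (SE 0.57), 0.65 (SE 0.38) and -0.24 (SE 0.59) in those comparisons. The single-gene values of Rad21 were 0.07 (SE 0.10), 0.05 (SE 0.07) and 0.01 (SE 0.09).

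Genes for cohesin loading, acetylation, release and partners, 8 in all, had medians of 0.02, -0.06 and 0.03 in the same order. At an unadjusted edgeR p below 0.05 there were 0 of the 8, where all genes gave 4.09%, 2.62% and 3.77%. Haspin, the histone H3 kinase of centromeres, was the most abundant of them at 122.5 ± 10.9 FPKM, next to the 125.2 of Smc3, and Pds5a, a cohesin-binding regulator, the least at 0.908 ± 0.178. The 13 shugoshin partners, which include the phosphatase PP2A that shugoshins recruit, had medians of -0.04, -0.06 and 0.09, with 12, 13 and 12 of them tested. Their levels ran from 0.288 ± 0.339 FPKM for Ppp2cb, a catalytic PP2A subunit with 0 to 34 counts, to 30.3 ± 3.63 for Ppp2r5d, a B56 regulatory subunit of the kind that binds shugoshin. The smallest unadjusted p over the wider lists in Low–RFP was that of Sgo2b, a paralog of Sgo2a, at -0.32 (SE 0.15; edgeR p 0.0457, adjusted p 0.9999).

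Of the genes of the anaphase-promoting complex, which marks securin for destruction, and of its regulators, 21 of 21 were tested. Their median was 0.13 in High–RFP, 0 in Low–RFP and 0.12 in High–Low, beside -0.01, 0 and 0 over all genes. The genes above 0 numbered 16, 10 and 16 of 21, beside 7314 of 14829, 7439 of 15199 and 7309 of 14785 over all genes. At an unadjusted p below 0.05 there were 2, 0 and 2 of the 21, where all genes gave 4.09%, 2.62% and 3.77%. Ube2c, the E2 enzyme that starts ubiquitin chains on its substrates, was the most abundant at 59.0 ± 12.9 FPKM and had the smallest p over the wider lists in High–RFP, at 0.49 (SE 0.14; edgeR p 0.00581, adjusted p 0.997). Ube2d1, another E2 enzyme, had the smallest in High–Low, at 0.69 (SE 0.25; edgeR p 0.0199, adjusted p 0.998). The subunit Cdc23 was the least abundant at 1.04 ± 0.395 FPKM. Of the oocyte markers, 10 of 12 were above 0 in High–RFP with a median of 0.13 and 12 of 12 in High–Low with a median of 0.12, and their part was not tested.

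The condensin and Smc5/6 genes, 10 in all, whose products compact chromosomes and repair DNA, had medians of -0.09, -0.01 and -0.05, with 1, 0 and 1 of the 10 at an unadjusted p below 0.05, against 4.09%, 2.62% and 3.77% of all genes. Smc4, an SMC subunit of condensin, was the highest at 200.1 ± 13.3 FPKM, above all 9 members, and Ncapd2 the lowest at 2.61 ± 0.631.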

How the data were processed

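Per the labels' protocols, paired-end libraries were made from the poly-A RNA of pooled MII oocytes with random priming. The submitters' processing notes name fastp, HISAT2 2.0.5, featureCounts 1.5.0-p3, DESeq2 1.20.0 and the build mm10, without their roles. The authors deposited 3 tables, 1 per pair of groups, with raw read counts, which were the input to every test, and with the authors' FPKM, used to compare genes by length. The tables' normalised signal and the authors' own comparisons were not used. The tables were joined by gene identifier into 30153 genes. For 178 genes, the libraries for which no table held the gene were set to 0. Groups came from the labels. All value columns matched a library. Total counts limit the precision of low genes such as Stag3, and counting errors cover counting alone.

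Each pair of groups was fitted on its 6 libraries and all its genes with edgeR 4.0.16 (R 4.3.3) at default settings: filterByExpr, TMM, the quasi-likelihood test and Benjamini-Hochberg adjustment with a threshold of 0.05. CPM were scaled by TMM over 9 libraries. The script was tested on simulated data. Loci, transcript ends and overlaps came from GENCODE M21 on GRCm38, in which 29332 genes had the deposited coordinates. All 9 members had deposited lengths equal to their exonic length there.

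The members, the wider lists (mitotic subunits, cohesin regulators, shugoshin partners, the anaphase-promoting complex, condensin) and the marker lists (oocyte, cumulus and granulosa, other ovarian and blood, cycling) were chosen with earlier results of these data known. Of the wider lists, the text names all mitotic subunits, the most and least abundant gene of each list, and the gene with the smallest p in each comparison; Kctd18 was added after its values were seen. Similar profiles were sought for the member with the largest SD of log2 CPM, with a prior count of 2. Alternatives were DESeq2's size factors, DESeq2 1.42.0 itself, limma-voom (limma 3.58.1), no filter on low counts, a fit of all 9 libraries, the replicate number as a block, leaving out each library, CPM per kilobase in place of FPKM and, as an addition chosen after seeing the data, bias-adjusted deviances in edgeR.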

Additional observations from a re-analysis of the deposited data

How the results depend on the processing

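No member was called under any alternative fit in any of the 3 comparisons, and the lowest adjusted p was 0.464 (Sgo2a, GFP High against RFP). The alternative with bias-adjusted deviances was chosen after seeing the data. Of 189 log2 fold changes from fits of all 6 or 9 libraries, 4 changed sign: Stag3 in GFP High against RFP to -0.0637 with limma-voom and -0.0397 with the replicate block, and, without a filter on low counts, Espl1 in GFP Low against RFP to -0.000559 and Sgo1 in GFP High against GFP Low to -0.00129. The replicate block called 0 members in all 3 comparisons. Libraries of the same number had correlations of their deviations of -0.11 to 0.12. With 3 libraries per group, these values cannot show whether such libraries were collected together. Nothing states that the numbers pair libraries, so libraries of the same number were not treated as pairs.

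Of 162 fold changes with 1 library left out, 35 changed sign, in 17 of 27 results, none of which was above 0.15 in size with all libraries. Their ranges in GFP High against RFP were -0.00344 to 0.13 (Smc3), -0.43 to 0.40 (Stag3), -0.12 to 0.0147 (Sgo1) and -0.0545 to 0.13 (Espl1). In GFP Low against RFP they were -0.0231 to 0.10 (Smc1b), -0.0333 to 0.0843 (Smc3), -0.0203 to 0.26 (Stag3), -0.16 to 0.0385 (Sgo1), -0.11 to 0.27 (Pttg1), -0.0621 to 0.12 (Espl1), -0.13 to 0.00912 (Wapl) and -0.11 to 0.0576 (Nipbl). In GFP High against GFP Low they were -0.037 to 0.12 (Smc3), -0.58 to 0.25 (Stag3), -0.11 to 0.0924 (Sgo1), -0.0753 to 0.26 (Pttg1) and -0.0258 to 0.0384 (Espl1). The cause was not tested. Over all genes, GFP High against RFP gave 2 calls with edgeR, 13 with DESeq2, 16 without a filter, 4 with the block and 1 with limma-voom; GFP Low against RFP gave 3, 8, 34, 3 and 1; GFP High against GFP Low gave 0, 16, 16, 0 and 0. At an unadjusted p below 0.05, 2 members passed in GFP High against GFP Low without GFP High replicate 1 and at most 1 in any other fit. The share of all genes at that threshold was not counted in the alternative fits, so no result about the members is drawn from these counts. Member levels with CPM per kilobase moved by less than 1 SD and kept the order of the means. Both measures divide the same counts by the same deposited gene length, so this could not test the choice of length.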
